A study of Mus musculus with 6 samples.

Results

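Neutrophil recruitment was followed through 10 genes in the tumor RNA, chosen by name: the chemokines Cxcl1, Cxcl2, Cxcl3 and Cxcl5, the receptors Cxcr2 and Csf3r, and the neutrophil markers S100a8, S100a9, Retnlg and Ly6g. All 10 were found by symbol among the 55536 genes of the count table, and 8 of them passed the filter on low counts that kept 15374 genes. Retnlg and Ly6g did not pass it. The libraries came from bulk RNA of orthotopic liver tumors, 3 from untreated control mice (controls 5, 6 and 7) and 3 from mice given nanoparticles loaded with GOX (glucose oxidase) and DOX (doxorubicin), which the study calls GOx-DOX-LGP (treated tumors 1, 2 and 5). In both groups, 1000000 cells of HCA-1, a murine HCC line, had been injected under the liver capsule of male C3H mice (C3H/HeNCrNarl in the study's methods) aged 6 to 8 weeks. According to the labels, the nanoparticles were given intravenously on days 18, 19 and 20, while the same labels place the transcriptome analysis on day 17 after 3 h of circulation, before the first of these doses. The study's methods for quantitative PCR describe tumors dosed on these same days and taken on the day after the last dose, but they do not say that the sequenced RNA came from that harvest. The comparison asks how tumors given both agents together in the carrier differ from tumors given nothing, and it holds no library with an empty carrier or with either agent alone. The labels number the libraries but do not say that each is a separate mouse, and p-values measure only the spread between these libraries.

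Neutrophils leave the blood along gradients of CXC chemokines that carry a Glu-Leu-Arg motif before the first cysteine pair, and Cxcl1, Cxcl2, Cxcl3 and Cxcl5 are ligands of this kind for the receptor Cxcr2. Csf3r binds granulocyte colony-stimulating factor, which drives neutrophil production and survival. S100a8 and S100a9 form calprotectin, an abundant neutrophil cytosolic protein that monocytes also make, while Retnlg and Ly6g mark mouse neutrophils more narrowly. In tumors, neutrophils have been described both as killers of tumor cells and as suppressors of T cells.

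The genes of all 4 chemokines lie on chromosome 5 within one stretch of GRCm38, between 90759360 (Cxcl5) and 90905938 (Cxcl2) in GENCODE M21, on the plus strand. The 90 bases just before the annotated starts of Cxcl1, Cxcl2 and Cxcl3 are shown because these genes differed in their pattern across tumors although they share a sequence there. The sequences are from RefSeq (GRCm38.p6, plus strand), and capitals mark the longest run of bases common to all 3, GGGAATTTCCC, which holds a binding sequence of the inflammatory transcription factor NF-κB.
Cxcl1, chr5:90891151-90891240: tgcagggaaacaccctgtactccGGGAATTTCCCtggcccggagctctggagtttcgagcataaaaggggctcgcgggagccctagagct
Cxcl2, chr5:90903781-90903870: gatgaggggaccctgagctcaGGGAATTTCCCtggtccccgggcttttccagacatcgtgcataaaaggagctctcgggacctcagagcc
Cxcl3, chr5:90786013-90786102: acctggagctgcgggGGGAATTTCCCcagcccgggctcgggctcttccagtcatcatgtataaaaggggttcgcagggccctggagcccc
The capitals begin 67, 69 and 75 bases before the start in Cxcl1, Cxcl2 and Cxcl3. Searched on both strands in the 250 bases before each RefSeq start, these 11 bases were found in 14 of 27025 genes (0.0518%). Cxcl1, Cxcl2 and Cxcl3 are among the 14 by the way the run was defined, and 0 of the other 6 genes with a promoter entry held it. In a global alignment, the printed stretches shared 70 of 90 bases between Cxcl1 and Cxcl2, 63 between Cxcl1 and Cxcl3, and 65 between Cxcl2 and Cxcl3. These matches describe the letters only.

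Raw counts summed to between 15529940 and 18401178 per library. The control tumors were unlike each other. Control 5 had a Pearson r of 0.97 to 0.98 with the treated tumors, against 0.73 with control 6 and 0.66 with control 7. Controls 6 and 7 had an r of 0.97 with each other. The mitochondrial percentage was 2.21%, 7.02% and 8.98% in controls 5, 6 and 7, against 2.63% to 3.23% in the treated tumors. A list of 12 hepatocyte genes took 0.095% of all counts in control 5, 10.3% in control 6 and 12.1% in control 7, against 0.201% to 0.498% in the treated tumors. Among markers of liver tumor and epithelium, Spp1 measured 6838, 463 and 178 CPM (counts per 1000000, scaled by TMM) in controls 5, 6 and 7, and 4589 to 6936 CPM in treated tumors, while Afp and Gpc3 stayed at or under 13.2 CPM in each library. Sox9 was also uneven, at 147, 17.6 and 10.4 CPM in controls 5, 6 and 7. Other epithelial markers differed less among these controls. Krt8 measured 433, 347 and 313 CPM, Krt18 627, 416 and 336 CPM, Krt19 30.7, 69.6 and 13.0 CPM, and Epcam 6.67, 4.32 and 4.20 CPM. The values of the 10 genes are therefore given library by library. In bulk RNA fewer cells of a type cannot be told apart from less RNA per cell.

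After Benjamini-Hochberg adjustment over all genes kept in edgeR's quasi-likelihood test, 0 of the 8 genes had an adjusted p under 0.05, and so had 0 of 15374 genes (0%). At an unadjusted p under 0.05 there were again 0 of 8, where 2.87% of all genes had such a p with a higher and 14.6% with a lower level in treated tumors. DESeq2 gave a p for 9 of the 10 genes and called 0 at an adjusted p under 0.05, against 5.21% of the genes it tested. At an unadjusted p under 0.05 it had 0 of 9, where 2.39% of its genes were higher and 9.56% lower. Limma voom, with weights that discount variable libraries, called 3 of 8 (Cxcl1, Cxcl2 and Cxcl3) where it called 60.2% of all genes, 29.2% higher and 30.9% lower. The median log2 fold change was 0.41 over the 8 genes and 0.02 over all genes kept. Every treated tumor lay above every control for 1 of the 8 genes, Cxcl3, where 8.87% of all genes did so, and 0 of 8 lay below in every tumor, where 8.31% of all genes did so. Scaled by library totals, Cxcl3 and S100a9 lay above in every tumor (14.6% of all genes), and without a filter Cxcl3 and Ly6g did (7.43%). These shares are close to the background and are not a result about the group of genes as a whole. The separate genes, however, followed different patterns across the tumors.

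**Figure D1:**
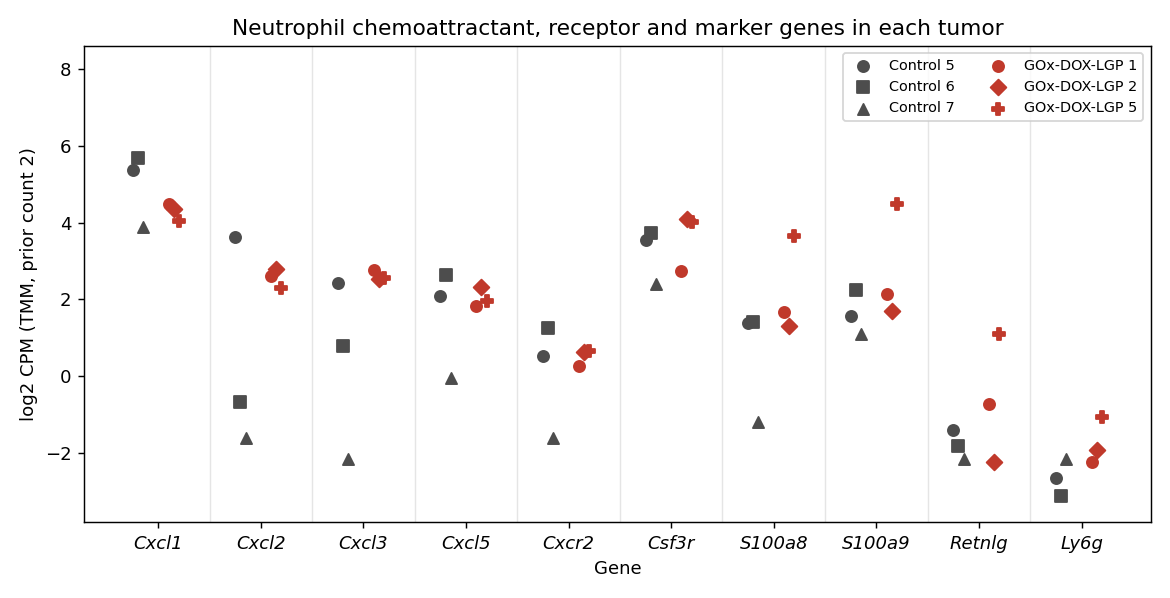
Level of each of the 10 genes in each tumor as log2 CPM (TMM scaling, prior count of 2), with gray symbols for controls and red symbols for treated tumors (GOx-DOX-LGP) and a symbol shape for each library. Control 7 is the lowest library for 8 of the 8 genes that passed the filter on low counts, and treated tumor 5 stands above all others for S100a8, S100a9 and Retnlg. Control 7 was also the lowest library for 9 of 9 T cell genes and 10 of 12 NF-κB target genes, but for 0 of 12 hepatocyte genes. The share of all genes that are lowest in control 7 was not measured.

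Cxcl1 (ENSMUSG00000029380, chromosome 5, 90891241 to 90893115), the main neutrophil chemoattractant that epithelial and stromal cells release, measured 41.1, 51.1 and 14.7 CPM in controls 5, 6 and 7, against 22.3, 20.2 and 16.2 CPM in treated tumors 1, 2 and 5. The treated tumors lay below controls 5 and 6 and above control 7, so that the groups overlapped. The means were 35.7 ± 18.8 CPM (SD, n = 3) and 19.6 ± 3.10 CPM (SD, n = 3), and the log2 fold change was -0.87 (standard error 0.46, 95% interval -1.99 to 0.25). The adjusted p was 0.363 in edgeR's quasi-likelihood test and 0.356 in DESeq2, while limma voom with weights gave 0.0232. The log2 fold change stayed negative in all 13 alternative settings, between -1.24 and -0.44, and the latter value came from scaling by library totals, under which the median of all genes was 0.51.

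Cxcl2 (ENSMUSG00000058427, chromosome 5, 90903871 to 90905938), a ligand that activated macrophages and neutrophils themselves release, measured 12.2, 0.509 and 0.215 CPM in controls 5, 6 and 7, from 279, 6 and 2 counts. It measured 6.03, 6.86 and 4.79 CPM in treated tumors 1, 2 and 5. Control 5 was thus above all treated tumors, and the other two controls were far below them. With all 6 libraries the log2 fold change was 0.41 (standard error 1.28, 95% interval -2.71 to 3.53, adjusted p = 0.858 in edgeR's quasi-likelihood test). Without control 5 it was 3.98 (adjusted p = 0.000764 in edgeR's quasi-likelihood test), in a fit in which 47.7% of all genes were called and 22.2% were called higher. Without control 6 or control 7 it was -0.10 and -0.13. The direction for Cxcl2 therefore depended on which control tumor was counted.

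Cxcl3 (ENSMUSG00000029379, chromosome 5, 90786103 to 90789600), a close relative of Cxcl2, measured 5.26, 1.61 and 0.108 CPM in controls 5, 6 and 7, against 6.67, 5.63 and 5.78 CPM in treated tumors 1, 2 and 5. The groups did not overlap, though control 5 came close to the lowest treated tumor (exact permutation test, two-sided, p = 0.1, which is as low as 3 libraries against 3 can go). Control tumors averaged 2.33 ± 2.65 CPM (SD, n = 3) and treated tumors 6.03 ± 0.564 CPM (SD, n = 3), and the log2 fold change was 1.32 (standard error 0.97, 95% interval -1.05 to 3.69, adjusted p = 0.475 in edgeR's quasi-likelihood test). It was positive in all 13 alternative settings, from 0.79 to 2.76. The upper value is the fit without control 5, in which the adjusted p was 0.0185 (edgeR's quasi-likelihood test). Stretches of 50 bases that also occur in other genes made up 4.29% of the Cxcl3 transcripts and 5.84% of those of Cxcl2, mostly shared between these genes, so that a small part of their counts is uncertain.

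Cxcl5 (ENSMUSG00000029371, chromosome 5, 90759360 to 90761624), a ligand made mainly by epithelial cells, measured 4.17, 6.11 and 0.861 CPM in controls 5, 6 and 7, against 3.46, 4.85 and 3.75 CPM in treated tumors 1, 2 and 5. The treated tumors lay within the range of the controls. The log2 fold change was 0.11 (standard error 0.65, 95% interval -1.48 to 1.69, adjusted p = 0.930 in edgeR's quasi-likelihood test). The values are thus compatible with a change anywhere in that interval, in either direction.

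The balance among the ligands was examined after their values had been seen, as each ligand's share of the summed counts of all 4 in a library, a measure that no scaling between libraries can move. Cxcl1 made up 65.5%, 86.1% and 92.6% of the ligand counts in controls 5, 6 and 7, against 58.0%, 53.8% and 53.2% in treated tumors 1, 2 and 5. Its share was lower in every treated tumor than in every control, and the nearest 95% Wilson intervals, which cover counting error only, were 63.0% to 67.9% in control 5 and 54.5% to 61.4% in treated tumor 1. The share of Cxcl3 was 8.39%, 2.71% and 0.676% in controls 5, 6 and 7, against 17.3%, 15.0% and 18.9% in treated tumors 1, 2 and 5. It was higher in every treated tumor, with nearest intervals of 7.06% to 9.94% in control 5 and 12.7% to 17.7% in treated tumor 2. Of the 4 shares tested, these are the ones without overlap (two-sided exact permutation test, p = 0.1 for each, the smallest possible). The shares are parts of the same total, so that a lower share of Cxcl1 raises the others and these results are not independent. No background from other sets of genes was measured for such shares. The Cxcl2 share was 19.5%, 0.857% and 1.35% in controls 5, 6 and 7, against 15.7%, 18.3% and 15.7% in treated tumors 1, 2 and 5 (exact permutation test, two-sided, p = 0.4). By this measure control 5 resembled the treated tumors for Cxcl2, whereas for Cxcl1 and Cxcl3 it lay between them and the other controls. Control 5 was also closer to the treated tumors by the Pearson r between libraries, so that its likeness to them was not confined to the ligands. The Cxcl5 share overlapped between the groups, at 5.41% to 10.3% in controls and 8.99% to 12.9% in treated tumors.

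**Figure D2:**
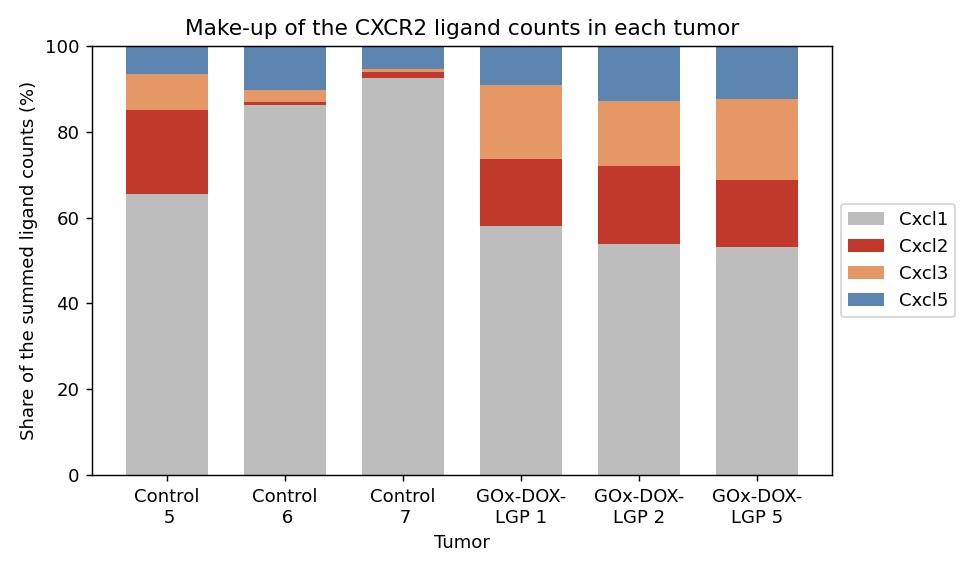
Make-up of the summed read counts of Cxcl1, Cxcl2, Cxcl3 and Cxcl5 in each tumor, as a percent of the counts of all 4 genes in that library. Cxcl1 fills 86.1% and 92.6% of the bar in controls 6 and 7 and 53.2% to 58.0% in the treated tumors, with control 5 at 65.5%.

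Cxcr2 (ENSMUSG00000026180, chromosome 1, 74153989 to 74161246), the receptor of these ligands on neutrophils, was low. It measured 1.32, 2.29 and 0.215 CPM in controls 5, 6 and 7, against 1.09, 1.42 and 1.46 CPM in treated tumors 1, 2 and 5. The highest and the lowest library were both controls. The log2 fold change was 0.03 (standard error 0.71, 95% interval -1.68 to 1.75, adjusted p = 0.981 in edgeR's quasi-likelihood test), and other genes shared 6.68% of its stretches of 50 bases.

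Csf3r (ENSMUSG00000028859, chromosome 4, 126024550 to 126044440), the receptor of granulocyte colony-stimulating factor, measured 11.5, 13.1 and 5.17 CPM in controls 5, 6 and 7, against 6.52, 17.0 and 16.0 CPM in treated tumors 1, 2 and 5. treated tumor 1 fell among the controls and the other treated tumors lay above them. The log2 fold change was 0.41 (standard error 0.51, 95% interval -0.82 to 1.64, adjusted p = 0.644 in edgeR's quasi-likelihood test). Other genes shared 10.7% of its stretches of 50 bases.

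S100a8 (ENSMUSG00000056054, chromosome 3, 90668978 to 90670035), the smaller calprotectin subunit, measured 2.50, 2.54 and 0.323 CPM in controls 5, 6 and 7, against 3.06, 2.35 and 12.5 CPM in treated tumors 1, 2 and 5. S100a9 (ENSMUSG00000056071, chromosome 3, 90692632 to 90695721), its partner, measured 2.85, 4.66 and 2.04 CPM in the controls and 4.30, 3.14 and 22.1 CPM in the treated tumors in the same order. For both subunits, treated tumor 5 stood far above the rest and the other treated tumors lay near controls 5 and 6. The log2 fold change was 1.71 for S100a8 (standard error 0.93, 95% interval -0.56 to 3.98, adjusted p = 0.370 in edgeR's quasi-likelihood test). For S100a9 it was 1.62 (standard error 0.83, 95% interval -0.41 to 3.65, adjusted p = 0.352 in edgeR's quasi-likelihood test). Without treated tumor 5 these values were 0.62 and 0.27, so that most of the difference between the group means came from that tumor.

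The narrower markers were near the limit of detection. Retnlg (ENSMUSG00000022651, chromosome 16, 48872621 to 48874496), a secreted protein of the resistin family, had 6, 2 and 1 counts in controls 5, 6 and 7, against 10, 2 and 39 counts in treated tumors 1, 2 and 5. Ly6g (ENSMUSG00000022582, chromosome 15, 75155240 to 75159126), the surface antigen used to sort mouse neutrophils, had 1, 0 and 1 counts in controls and 2, 3 and 7 counts in treated tumors. The 0 counts of Ly6g in control 6 allow a level of up to 0.254 CPM in that library. Both genes were highest in treated tumor 5, at 2.03 CPM for Retnlg and 0.364 CPM for Ly6g, and the groups overlapped for both. The two-sided exact permutation test gave p = 0.4 for Retnlg and p = 0.2 for Ly6g.

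**Figure D3:**
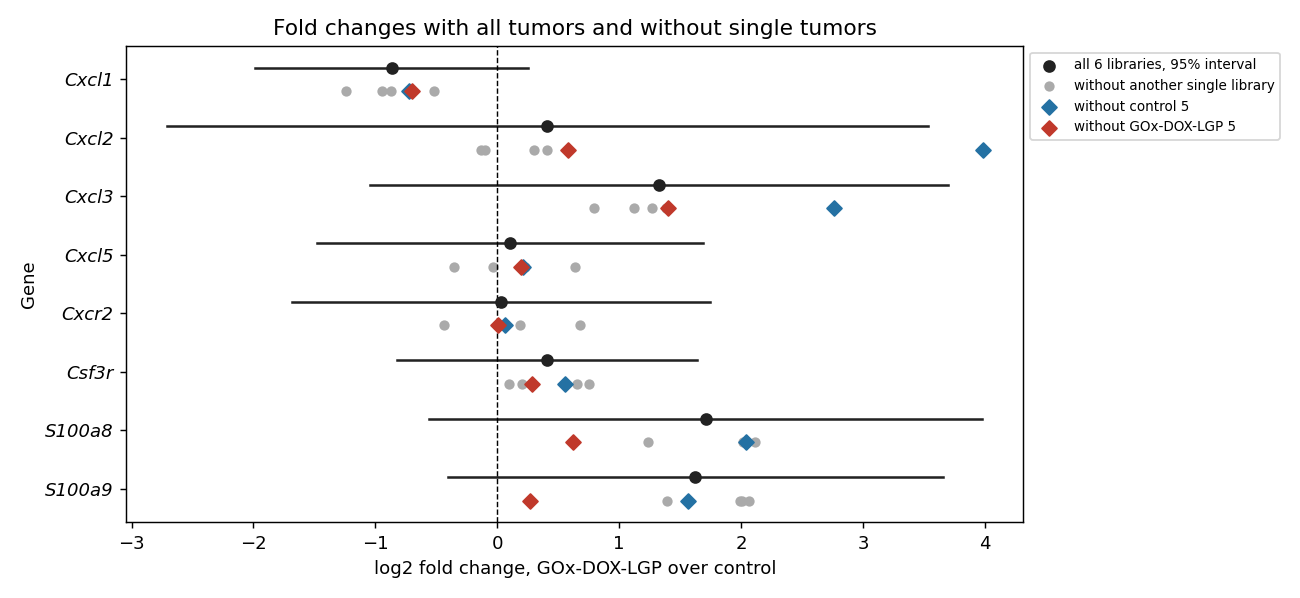
Log2 fold change, treated (GOx-DOX-LGP) over control, of the 8 genes that passed the filter on low counts, where black points and lines give the fit to all 6 libraries with its 95% interval, and the points under each line give fits that leave out 1 library. Cxcl2 moves from 0.41 to 3.98 without control 5, and S100a9 from 1.62 to 0.27 without treated tumor 5.

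Levels were also set against Ptprc, the gene of the pan-leukocyte antigen CD45. Ptprc itself measured 116, 69.2 and 39.3 CPM in controls 5, 6 and 7, against 90.8, 115 and 116 CPM in treated tumors 1, 2 and 5. The difference in log2 CPM between Cxcl1 and Ptprc was -1.49, -0.44 and -1.41 in controls 5, 6 and 7, against -2.02, -2.50 and -2.82 in treated tumors 1, 2 and 5, lower in every treated tumor, as were 5.65% of all genes kept. For Cxcl3 it was -4.43, -5.33 and -7.46 in the controls and -3.74, -4.32 and -4.30 in the treated tumors, higher in every one of them, as were 3.26% of all genes kept, though control 5 lay close to treated tumor 2. For the other 8 genes the groups overlapped on this scale. S100a9 was between -5.29 and -3.86 in controls, and at -4.36, -5.15 and -2.38 in treated tumors 1, 2 and 5.

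Levels of different genes were compared per length of the annotated exons, as TPM, in which the length-scaled counts of all genes in a library sum to 1000000. Cxcl1 ranked first among the 10 genes in 5 of 6 libraries, with 50.5 ± 40.0 TPM (SD, n = 3) in controls and 39.2 ± 6.85 TPM (SD, n = 3) in treated tumors. In treated tumor 5 it ranked 3rd, after S100a9 at 156 TPM and S100a8 at 66.6 TPM. S100a9 came second in 4 of the other 5 libraries. Ly6g was the lowest of the 10 genes in 5 of 6 libraries. The order of the leading genes of treated tumor 5 was the same when counts were divided by the length of the principal transcript, and the spread among controls was wider than the distance between most neighbors in the order.

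Other genes of mature neutrophils were described from a list of 24, of which 17 passed the filter and 1, Cxcr1, had 0 counts in each library. The median log2 fold change was 0.99, with 12 higher and 5 lower. Unadjusted p-values under 0.05 were found for 7 higher and 3 lower genes (edgeR's quasi-likelihood test), where 2.87% and 14.6% of all genes had them, and 0 had an adjusted p under 0.05. The groups did not overlap for 10 higher genes and 1 lower gene, where 8.87% and 8.31% of all genes did not. Genes with few control counts could pass the filter through their treated libraries alone. Without a filter, 23 genes of the list were tested and 16 were higher (median 1.02). The groups then did not overlap for 12 higher genes and 1 lower gene, where 7.43% and 4.42% of all genes did not. Among the genes that passed the filter, Clec4e had the highest log2 fold change (2.64, standard error 1.00). This C-type lectin receptor of neutrophils and macrophages measured 1.97, 0.763 and 0 CPM in controls 5, 6 and 7. It measured 4.65, 8.08 and 5.57 CPM in treated tumors 1, 2 and 5. DESeq2 called 3 higher genes of the list, picked out here after their values had been seen. It called 0.338% of the 33397 genes that it tested higher, and 112 of the 15374 genes kept. The 3 genes are named next. These were Clec4d (log2 fold change 2.45 in edgeR), a receptor that pairs with Clec4e, Slfn4 (1.70), an interferon-responsive myeloid gene, and Pglyrp1 (1.31), a granule protein that binds peptidoglycan. Leaving out each library in turn, between 10 and 13 genes of the list were higher without overlap, while the share of all genes ran from 9.74% to 36.8%, the latter without control 5.

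The list also held genes that liver cells express. Wfdc21 measured 0.746, 230 and 249 CPM in controls 5, 6 and 7, against 4.79, 1.22 and 2.50 CPM in treated tumors 1, 2 and 5. Lrg1, an acute-phase glycoprotein of hepatocytes as well as neutrophils, measured 4.21, 274 and 141 CPM in the controls and 13.8, 8.92 and 9.99 CPM in the treated tumors. Both followed Alb, the hepatocyte gene for albumin, at 353, 73804 and 128244 CPM in the controls and 733 to 1893 CPM in the treated tumors. With G0s2, an inhibitor of lipolysis, they were the 3 genes that DESeq2 called lower. It called 4.87% of the genes that it tested lower, and 1314 of the 15374 genes kept.

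Genes of neutrophil granules and precursors were low in most libraries, and most of them were highest in treated tumor 5. Of the list of 11 genes, 5 passed the filter, with a median log2 fold change of 2.39, but genes this low could pass through their treated libraries alone. Without a filter 9 of all 11 had a positive log2 fold change (median 2.43), and the protease gene Prtn3 and the granulocyte transcription factor gene Cebpe, at -1.22 and -0.04, did not. The summed level of all 11 was 5.09, 5.77 and 1.72 CPM in controls 5, 6 and 7, against 8.40, 6.91 and 35.3 CPM in treated tumors 1, 2 and 5. Treated tumor 5 was the highest library for 8 of the 11 genes, but the share of all genes that peak in this library was not measured. It also had counts for the most genes, 26648 against 21309 to 25363 in the other libraries. Prtn3 and Cebpe were highest in control 6, Prtn3 at 3.39 CPM there against 1.14 CPM in treated tumor 5. Chil3 was highest in treated tumor 2. Gfi1, another gene of the list, was similar in treated tumors 1, 2 and 5, at 1.53, 1.42 and 1.93 CPM. Ngp, a protein of specific granules, measured 1.45, 0 and 0.323 CPM in the controls and 1.68, 0.686 and 13.6 CPM in the treated tumors. Ltf, which encodes lactoferrin, measured 1.49, 0.254 and 0.108 CPM in the controls and 2.22, 0.686 and 7.86 CPM in the treated tumors. Chil3, a chitinase-like protein of neutrophils and macrophages, was higher in every treated tumor, at 1.19, 2.55 and 1.25 CPM against at most 0.351 CPM in controls. Other genes shared 26.9% of its stretches of 50 bases. Chil3 was the 1 gene of the list that DESeq2 called higher (adjusted p = 0.00825), where it called 0.338% of the genes that it tested and 112 of the 15374 genes kept. Without treated tumor 5 the median log2 fold change of the genes that then passed the filter was 1.14. The T cell list also peaked there, with treated tumor 5 the highest library for 9 of its 9 genes, and the part of other leukocytes in these values was not tested.

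**Figure D4:**
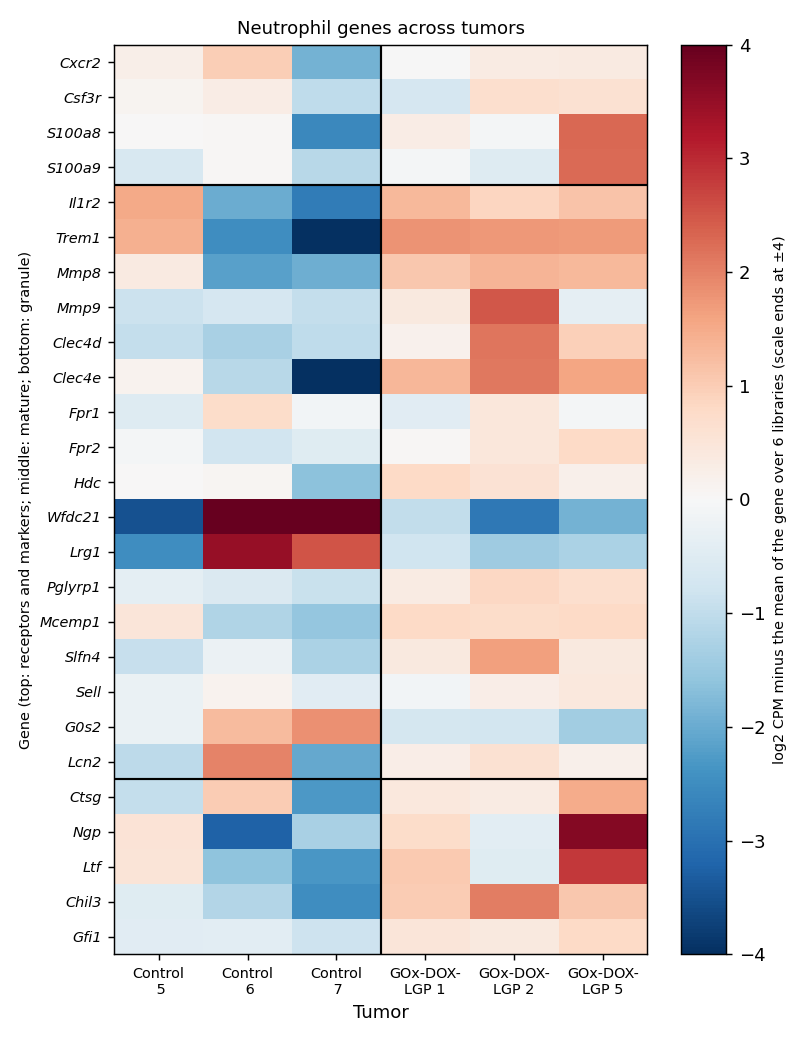
Log2 CPM of each gene minus its own mean over the 6 libraries, for the receptors and markers (top block), the mature neutrophil list (middle) and the granule and precursor list (bottom), genes that passed the filter only, with red above and blue below the mean. S100a8, S100a9, Ngp and Ltf are darkest red in treated tumor 5, and Wfdc21 and Lrg1 are red in controls 6 and 7.

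Among 25 genes for further chemoattractants, growth factors, receptors and adhesion molecules of neutrophil recruitment, 20 passed the filter and Cxcl15 and Il17a had 0 counts in each library. Their median log2 fold change was 0.63, with 15 higher and 5 lower. An unadjusted p under 0.05 was found for 4 higher genes and 0 lower genes (edgeR's quasi-likelihood test), against 2.87% and 14.6% of all genes. Without a filter, 3 higher and 2 lower of 23 genes had such a p in that test, against 2.27% and 9.03% of all genes. DESeq2 called 2 genes of the list higher, against 0.338% of the genes that it tested and 112 of the 15374 genes kept. These were the complement receptor C5ar1 (log2 fold change 1.61 in edgeR) and the integrin chain Itgam (2.11), which neutrophils, monocytes and macrophages share. Itgam measured 11.4, 13.6 and 5.81 CPM in controls 5, 6 and 7, against 21.7, 66.3 and 45.0 CPM in treated tumors 1, 2 and 5, but 66.3% of its stretches of 50 bases also occur in another annotated gene, so that its counts are uncertain. Cxcl12, a chemokine that retains neutrophils in the marrow, measured 20.6, 546 and 676 CPM in the controls and 32.1, 122 and 21.2 CPM in the treated tumors. Ackr1, the endothelial and red cell receptor that carries chemokines such as Cxcl1, measured 0.395, 3.05 and 5.38 CPM in the controls and 0.445, 1.03 and 0.208 CPM in the treated tumors, with 20.4% of its stretches of 50 bases shared with Cadm3. The growth factor gene Csf3 did not pass the filter.

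Of 12 NF-κB target genes, 12 passed the filter, 10 with a positive and 2 with a negative log2 fold change (median 0.61). The unadjusted p was under 0.05 for 1 higher and 1 lower gene in edgeR's quasi-likelihood test, against 2.87% and 14.6% of all genes. The higher gene was Ccl2, the main monocyte chemoattractant, at 24.5, 6.70 and 1.29 CPM in controls 5, 6 and 7, against 71.9, 53.1 and 65.2 CPM in treated tumors 1, 2 and 5. The lower one was Zfp36, which encodes an mRNA decay factor, at 65.3, 173 and 203 CPM in the controls and 44.2, 55.5 and 58.0 CPM in the treated tumors. Ier3, an early response gene, measured 62.3, 8.14 and 3.23 CPM in the controls and 75.4, 52.1 and 81.0 CPM in the treated tumors, with control 5 within the range of the treated tumors.

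Markers of other myeloid cells were measured beside these genes. Of 12 monocyte and macrophage genes, 0 had an adjusted p under 0.05 (edgeR's quasi-likelihood test), as had 0 of all 15374 genes kept. Only Cd68 had an unadjusted p under 0.05 in that test, with a higher level. Of all genes, 2.87% were higher and 14.6% lower at this threshold. DESeq2 called 1 gene of the list higher, Cd68 (adjusted p = 0.0343), where it called 0.338% of the genes that it tested and 112 of the 15374 genes kept. Of these 12 genes, 11 had a positive log2 fold change (median 0.66), and their summed level was 812 to 1823 CPM in controls and 1655 to 4103 CPM in treated tumors, with no gene of the list at 0 in every library. Treated tumor 2 was the highest library for 8 of the 12 genes and treated tumor 5 for 0, counts for which no share over all genes was measured. Cd68, a lysosomal marker of macrophages, measured 66.4, 55.2 and 39.1 CPM in controls 5, 6 and 7, against 93.2, 178 and 102 CPM in treated tumors 1, 2 and 5. Lyz2, which encodes lysozyme of macrophages and neutrophils, measured 760, 436 and 288 CPM in the controls and 739, 2262 and 989 CPM in the treated tumors, and Lyz1 shares 15.4% of its stretches of 50 bases. C1qa, a complement gene of tissue macrophages, measured 218, 160 and 87.6 CPM in the controls and 206, 436 and 338 CPM in the treated tumors. The part of monocytes and macrophages in the values of Csf3r, S100a8, S100a9, Clec4d, Clec4e and Itgam was not tested.

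The pattern of the markers across tumors was compared with that of every other gene kept. The mean centered log2 CPM of Cxcr2, Csf3r, S100a8 and S100a9 was -0.07, 0.34 and -1.64 in controls 5, 6 and 7, against -0.12, 0.11 and 1.38 in treated tumors 1, 2 and 5. The genes most like it over the 6 libraries were Gm26765, Cd226 and Krt10, with a Pearson r of 0.987, 0.984 and 0.984, and 164 genes had an r over 0.9. For the mean of the ligands, at 1.02, -0.25 and -2.33 in controls and 0.57, 0.64 and 0.35 in treated tumors, the most like were D430020J02Rik, Arfip2 and Gm19684 with an r of 0.999 each, and 2118 genes had an r over 0.9. With 6 libraries such likeness describes these tumors only.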

How the data were processed

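The authors deposited raw read counts per gene and, separately, signal values that are these counts divided by 1 size factor for each library (0.532 to 1.32), used here for gene symbols. The paper's methods name TopHat and HTSeq, whereas the submitters' processing notes name Trimmomatic 0.38, HISAT2 2.1.0 and featureCounts 2.0.0. The build, annotation and use of strand are not given in the sources used here. Positions are from GENCODE M21 on GRCm38, which holds 55450 of the 55536 gene identifiers.

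Raw counts were filtered (filterByExpr defaults), scaled by TMM and entered into edgeR 4.0.16 (quasi-likelihood test) in R 4.3.3 over all 6 libraries, without covariates, with a threshold of 0.05 after Benjamini-Hochberg adjustment over all genes kept. Intervals of fold changes are 95%. Log2 CPM used a prior count of 2. Alternatives were DESeq2 1.42.0, limma voom (limma 3.58.1) with sample quality weights, 3 other scalings, 2 other filters and leaving out each library. The steps were tested on simulated counts. A count of 0 was taken to allow 3 counts. Wilson intervals and these floors cover counting error only, whereas intervals of fold changes include the spread between libraries. Reads shared with other genes were gauged from stretches of 50 bases of GENCODE transcripts on either strand.

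The genes and lists were chosen with earlier results of these data known. Beyond the 10 genes, the 3 largest changes of each of 10 lists (of the hepatocyte list Alb only) and the 3 most similar genes per pattern are named, with Ptprc and Alb; any others were picked after their values had been seen. The list counts under each setting and the ligand shares were added later.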

Additional observations from a re-analysis of the deposited data

How the results depend on the processing

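With the other scalings, filters and DESeq2, 0 of the genes tested among the 10 had an adjusted p under 0.05. The other scalings and the filter of at least 10 counts in 3 libraries tested 8 of them, DESeq2 tested 9, and the fit without a filter tested 10. Limma voom with sample quality weights called 3 (Cxcl1, Cxcl2 and Cxcl3) with 60.2% of all genes, and it gave control 5 a weight of 0.0844. Without control 5, edgeR called 2 (Cxcl2 and Cxcl3) and 7745 genes in all, and over the fits without 1 library the number ranged from 0 to 2. The number of these genes without overlap between groups was 2 with library totals (Cxcl3 and S100a9) and 2 without a filter (Cxcl3 and Ly6g), and ranged from 1 to 3 over the fits without 1 library, in which 9.74% to 36.8% of all genes were higher and 9.37% to 35.3% lower without overlap. Under voom the log2 fold changes of Cxcl5, Cxcr2 and Csf3r were -0.41, -0.58 and -0.47. Over the fits without 1 library those of Cxcl2, Cxcl5 and Cxcr2 ranged from -0.13 to 3.98, -0.35 to 0.64 and -0.44 to 0.68, so that they also changed sign. Cxcl1, Cxcl3, S100a8 and S100a9 kept their direction in all 13 settings. DESeq2 gave no p for Cxcl2 and no adjusted p for Ly6g. No paired analysis was run because the labels pair no control with a treated tumor. Depth limits Retnlg and Ly6g, with at most 39 and 7 counts in a library.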

Other observations

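Granulocytes other than neutrophils and cells of the blood were checked with lists of their own. Of 8 eosinophil, basophil and mast cell genes, 5 passed the filter, 2 with a positive and 3 with a negative log2 fold change (median -0.14). The basophil protease gene Mcpt8 measured 1.10, 1.10 and 0.215 CPM in controls 5, 6 and 7, against 2.57, 2.60 and 3.49 CPM in treated tumors 1, 2 and 5 (log2 fold change 1.79, standard error 0.57, unadjusted p = 0.0197 and adjusted p = 0.247 in edgeR's quasi-likelihood test, adjusted p = 0.0280 in DESeq2). The eosinophil receptor gene Siglecf stayed at or under 1.75 CPM and Fcer1a, the IgE receptor chain of mast cells and basophils, at or under 1.73 CPM in each library. The red cell and platelet list summed to 18.3, 424 and 436 CPM in the controls and 37.3, 50.1 and 58.7 CPM in the treated tumors. Its red cell genes Alas2, Hba-a1 and Hbb-bs had log2 fold changes of -6.02, -2.94 and -2.87, and control 5 was low for each, so that the groups overlapped. Hba-a2 shares 72.3% of the stretches of 50 bases in Hba-a1, and Hbb-bt 53.2% of those in Hbb-bs, which leaves these counts uncertain. The T cell genes had a median log2 fold change of 1.36, with 9 of 9 higher and 8 higher without overlap, against 8.87% of all genes. The largest changes were those of Cd3d (1.73), Cd3g (1.52) and Lck (1.48). DESeq2 called 5 genes of this list higher, against 0.338% of the genes that it tested and 112 of the 15374 genes kept.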
